A study of Mus musculus with 6 samples.

Results

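Respiratory complex I passes electrons from NADH to ubiquinone in the inner mitochondrial membrane and pumps protons as it does so. It is L-shaped. A matrix arm holds the N module, which oxidises NADH, and the Q module, which reduces ubiquinone, and a membrane arm pumps the protons. Most subunits are encoded in the nucleus by genes named Nduf, a few are encoded in mitochondrial DNA, and dedicated assembly factors, many of them named Ndufaf, help build the complex without staying in it. Complex I is also a known source of superoxide in the mitochondrial matrix, where manganese superoxide dismutase (MnSOD, the product of Sod2) converts superoxide to hydrogen peroxide.

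The genes described here are those whose probe set carried exactly 1 gene symbol and whose symbol starts with Nduf. There were 43 such genes among 19938 genes with 1 symbol. They comprised 34 complex I subunits, 7 assembly factors (Ndufaf1 to Ndufaf7) and 2 genes that share the name but do not encode complex I subunits. These were Ndufa4, whose product is now assigned to cytochrome c oxidase (complex IV), and its relative Ndufa4l2. For 5 genes with more than 1 probe set (Ndufa11, Ndufab1, Ndufb11, Ndufc1 and Ndufs3) the brightest stood for the gene. Ndufb1, Ndufb4 and Ndufaf8 had no probe set of their own by this rule and were not analysed here.

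RNA came from AML-12 cells, a mouse hepatocyte line known to derive from mice carrying a transforming growth factor alpha transgene. One group, siMnSOD, carried a retroviral hairpin against MnSOD that was designed for mild silencing, and the other, siScramble, carried a hairpin with no target gene. Both groups went through the same retroviral transduction and puromycin selection, and each had 3 arrays titled as biological replicates. The design text says that 3 batches of frozen cells were used, without tying a batch to a replicate number. The series title speaks of a knockout, whereas the sample labels describe a knockdown. The sources used here do not say whether each replicate had its own transduction or whether cells were cloned, so the p-values reflect the spread among these arrays, which may be technical. Levels are log2 intensities of Affymetrix Mouse Gene 1.0 ST arrays, and a fold change is the siMnSOD mean minus the siScramble mean on that scale.

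The targeted gene Sod2 had log2 intensities of 6.63, 6.92 and 5.71 in siMnSOD replicates 1, 2 and 3 and of 7.95, 7.99 and 8.20 in siScramble. Every siMnSOD array was below every siScramble array. The log2 fold change was −1.63 (SE 0.30, n = 3 per group, adjusted p = 0.037 in limma), and an exact two-sided permutation test gave p = 0.1, the smallest that 3 against 3 arrays allow. Centring arrays on their medians gave −1.54 (adjusted p = 0.069). Without 1 of siMnSOD replicates 1 and 2 or siScramble replicates 1 and 2 it was 0.10, 0.072, 0.12 and 0.13. Replicate 3 stood apart in both groups: Pearson r across all probe sets was 0.992 and 0.993 between replicates 1 and 2 of a group, and between 0.976 and 0.985 when replicate 3 was set against them. Of 10 hepatocyte markers, Alb, Afp and Ttr lay under a background guide of 4.28 log2 units in both groups, while Trf, Apob, Hnf4a, Krt8 and Krt18 were well above it. The summed intensity of the 10 was 15597 to 17993 units in siMnSOD and 11016 to 15042 in siScramble, but the list did not move one way. Hnf4a rose (1.09, SE 0.14, adjusted p = 0.013), Cebpa was lower on every siMnSOD array without passing (−0.27, SE 0.14, adjusted p = 0.44), Apoa1 and Alb had −0.0039 and 0.0092, and the median of the 10 was 0.10. Of macrophage, endothelial and stellate cell markers (5 each), 3, 4 and 2 lay under that guide in both groups. The 4 biliary markers had a summed intensity of 3894 to 4180 units in siMnSOD and 1904 to 3292 in siScramble, with Epcam under the guide. This list was split. Sox9 was lower in siMnSOD (−0.86, SE 0.14, adjusted p = 0.027). Krt7 (1.15, SE 0.54, adjusted p = 0.38) and Krt19 (0.70, SE 0.24, adjusted p = 0.19) were higher on every siMnSOD array without passing. The part of these marker lists in the results below was not tested. In bulk RNA a change in the share of cells of a type and a change in RNA per cell cannot be told apart. Over all genes 432 were higher and 316 lower in siMnSOD at an adjusted p under 0.05, and 365 and 140 after centring. Leaving out 1 array gave from 52 higher and 25 lower (without siMnSOD replicate 2) to 1119 and 1119 (without siScramble replicate 3).

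The Nduf genes were mostly somewhat higher with the MnSOD hairpin, but few passed the test across all genes. Of 43 genes 38 had a positive log2 fold change, as had 52.3% of all genes (38 of the 43 also after centring and 36 with quantile normalization). The number was 30 without siMnSOD replicate 2, 33 without siScramble replicate 3 and 34 without siMnSOD replicate 1, and 38 or 39 without any other single array. The median was 0.25, against 0.01 over all genes. Ndufa3, Ndufa9 and Ndufa4 rose, which is 3 of 43 genes against 2.17% of all genes called higher. Ndufa4 does not encode a complex I subunit, and of the 34 subunits 2 passed. No gene of the 43 fell, against 1.58% called lower. At an unadjusted p under 0.05 in limma 13 were higher and 1 lower (8.61% and 8.06% of all genes). The siMnSOD arrays all exceeded the siScramble arrays for 14 genes, against 11.1% of all genes, and the reverse held for none of the 43, against 9.73%. The fold changes ran from −0.51 (Ndufaf4) to 0.83 (Ndufs6). All 43 genes lay above the background guide, with means over the 6 arrays from 4.79 (Ndufa4l2) to 11.16 (Ndufa4).

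**Figure D1:**
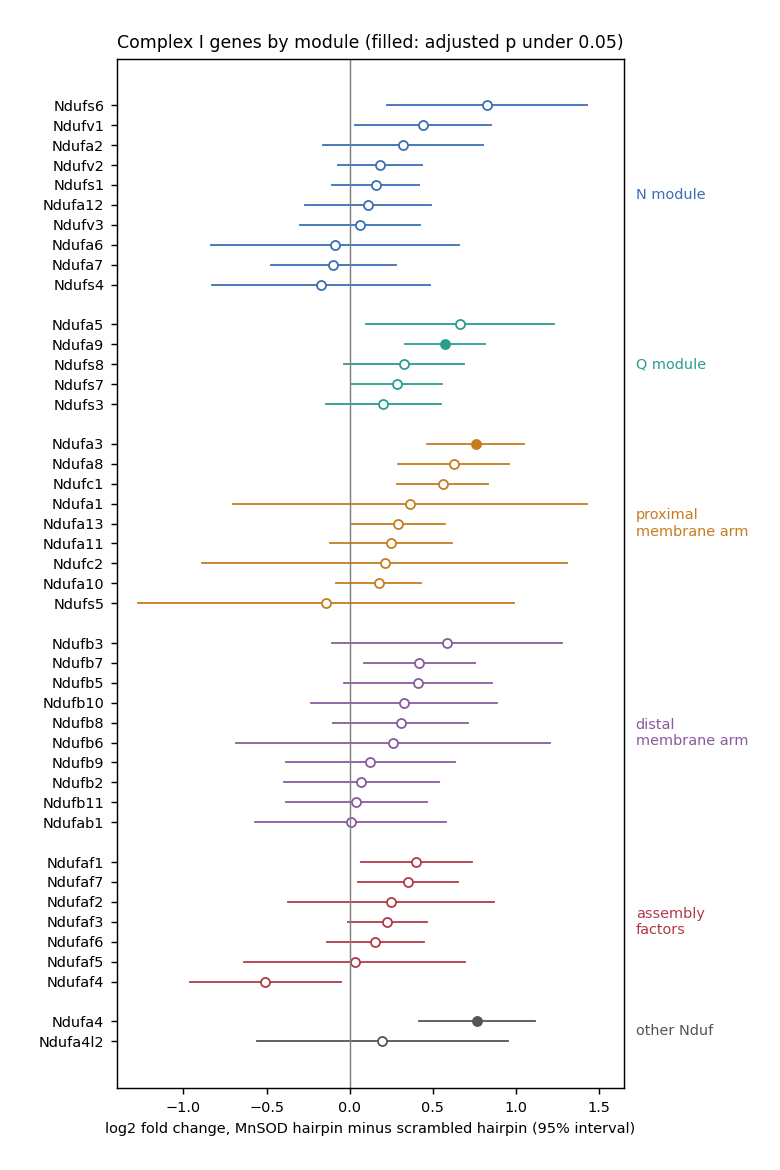
Log2 fold change (siMnSOD minus siScramble, horizontal axis) of each of the 43 genes, with its 95% interval from limma as a line and genes grouped by module. Filled points are the 3 genes with an adjusted p under 0.05 (Ndufa3, Ndufa9 and Ndufa4), and 5 points lie below 0.

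The start of the 3 called genes is shown here together with that of Ndufaf4, the gene with the most negative value, because regulators of respiratory genes such as NRF1 and YY1 are known to bind close to the start of many of them. Sequences are RefSeq's on build GRCm38.p6, on the gene's own strand from 5′ to 3′, covering 120 bases up to the base before the annotated start. Capitals mark the only motif found in these stretches, the NRF1 core GCATGCGC or its reverse complement GCGCATGC, which overlap here. Ndufa3 lies at chr7:3617253-3617372 (plus strand), Ndufa9 at chr6:126849145-126849264 (minus), Ndufa4 at chr6:11907451-11907570 (minus) and Ndufaf4 at chr4:24897963-24898082 (plus).
Ndufa3: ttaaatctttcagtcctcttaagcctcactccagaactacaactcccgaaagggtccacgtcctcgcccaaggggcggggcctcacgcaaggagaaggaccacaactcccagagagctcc
Ndufa9: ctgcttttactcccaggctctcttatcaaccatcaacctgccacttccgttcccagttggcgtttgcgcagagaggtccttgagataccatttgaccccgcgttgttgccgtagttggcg
Ndufa4: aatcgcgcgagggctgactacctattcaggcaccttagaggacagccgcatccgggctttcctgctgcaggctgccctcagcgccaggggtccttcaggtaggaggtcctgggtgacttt
Ndufaf4: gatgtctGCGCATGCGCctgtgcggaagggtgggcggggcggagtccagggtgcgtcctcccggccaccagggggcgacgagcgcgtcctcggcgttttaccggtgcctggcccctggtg

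Motifs were searched on both strands from 250 bases before to 50 after the start, for the 38 members with an entry in the RefSeq promoter table (all but Ndufa2, Ndufa4l2, Ndufaf6, Ndufb9 and Ndufs1). The YY1 letters AAGATGGC were found in 7 of the 38 members (18.4%) and in 3.19% of 27025 genes in the table. The 27025 include genes not tested here, whereas all members were tested and above the background guide. The NRF1 core was found in 5 members (13.2%, against 3.05%), the ETS site CCGGAAGT, which GABP proteins bind, in 1 (2.63%, against 4.31%) and the ERR site TCAAGGTCA in none (against 0.466%). The 7 genes with the YY1 letters are shown because 2 of the 3 called genes, Ndufa3 and Ndufa9, are among them. In each of these 7 the letters, in capitals, began at position 23 to 39, with the start as position 1.
Ndufa3, chr7:3617384-3617413: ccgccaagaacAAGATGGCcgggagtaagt
Ndufa9, chr6:126849097-126849126: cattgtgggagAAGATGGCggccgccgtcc
Ndufc1, chr3:51408915-51408944: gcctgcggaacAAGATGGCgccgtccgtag
Ndufs6, chr13:73328433-73328460: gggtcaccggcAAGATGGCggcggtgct
Ndufs7, chr10:80249462-80249491: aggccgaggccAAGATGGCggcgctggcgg
Ndufb8, chr19:44555393-44555415: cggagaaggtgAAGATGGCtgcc
Ndufs4, chr13:114388045-114388070: ttgcctacaggAAGATGGCggcggtc

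The 7 members with the YY1 letters had a median log2 fold change of 0.56, from −0.17 in Ndufs4 to 0.83 in Ndufs6, and the other 31 had a median of 0.25. The 7 were singled out because they include called genes, so this comparison is not independent of the fold changes. A link with the letters was not tested. Among all tested genes in the promoter table the medians were 0.03 with the letters (588 genes) and 0.01 without them (15026 genes). The 5 members with the NRF1 core were Ndufa6, Ndufa8, Ndufa11, Ndufaf4 and Ndufaf5, with a median of 0.03. A match of letters is a description and does not show that a factor binds there.

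The proximal membrane arm, which joins the matrix arm to the proton pumps, held the subunit with the smallest p. Ndufa3, a small accessory subunit of this region, had log2 intensities of 8.51, 8.48 and 8.21 in siMnSOD replicates 1, 2 and 3 and of 7.54, 7.70 and 7.69 in siScramble. The groups did not overlap, and the siMnSOD value was lowest in replicate 3. Ndufa3 rose 1.69-fold (log2 fold change 0.76, SE 0.12, adjusted p = 0.025). Its call was lost without siMnSOD replicate 1 (adjusted p = 0.10) or 2 (0.14), or without siScramble replicate 1 (0.12) or 2 (0.11), while the log2 fold change stayed between 0.70 and 0.85.

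Ndufc1, a small membrane-spanning subunit, had 9.04, 9.10 and 9.02 in siMnSOD and 8.35, 8.47 and 8.66 in siScramble. Its 3 siMnSOD arrays differed by less than 0.1 and all lay above the controls, but the fold change of 0.56 (SE 0.12) had an adjusted p of 0.052. A second, dimmer probe set of Ndufc1 gave 0.47 (SE 0.16). Ndufa8, an accessory subunit on the side of the membrane facing away from the matrix, had 9.42, 9.50 and 9.32 against 8.97, 8.87 and 8.53, again without overlap (0.63, SE 0.14, adjusted p = 0.065). Both passed with the replicate number as a block (adjusted p = 0.043 for Ndufc1 and 0.034 for Ndufa8). Of the 9 measured genes of this region 8 were positive and 1 passed, against 52.3% and 2.17% of all genes. Their median was 0.29. Ndufa13, also known as GRIM-19, had 0.29 (SE 0.12, adjusted p = 0.28) without overlap between the groups. Ndufa10 and Ndufa11 had 0.17 (SE 0.11) and 0.25 (SE 0.16), with overlap.

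**Figure D2:**
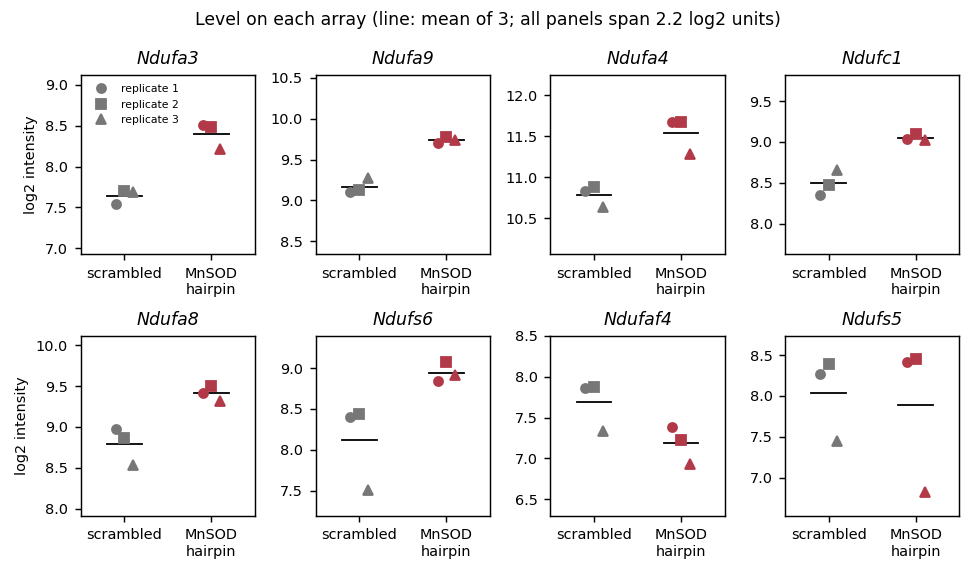
Log2 intensity of 8 genes on each of the 6 arrays, with siScramble in grey, siMnSOD in red, the replicate number as the marker shape and the mean of 3 arrays as a line. The groups are apart for Ndufa3, Ndufa9, Ndufa4, Ndufc1, Ndufa8 and Ndufs6 and overlap for Ndufaf4 and Ndufs5, where replicate 3 is the lowest array of each group.

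In the Q module all 5 measured subunits had positive values within every replicate number, with a median fold change of 0.33. Over all genes 22.6% were higher within every replicate number. Ndufa9, an accessory subunit next to the ubiquinone site, had 9.70, 9.78 and 9.74 in siMnSOD and 9.10, 9.13 and 9.28 in siScramble. The replicates of each group lay close together and the groups did not overlap. Ndufa9 rose 1.49-fold (log2 fold change 0.57, SE 0.10, adjusted p = 0.033). Leaving out any array but siScramble replicate 3 ended this call, with adjusted p between 0.066 and 0.17, and so did testing all probe sets (0.06). Ndufa5, an accessory subunit of the matrix arm, had 8.0, 7.91 and 7.22 against 7.10, 7.28 and 6.77. Replicate 3 was low in both groups, so that siMnSOD replicate 3 lay below siScramble replicate 2. The difference was 0.90, 0.63 and 0.45 within replicate numbers 1, 2 and 3, and the adjusted p was 0.22 without the block and 0.040 with it.

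The other Q module subunits belong to the evolutionary core of the enzyme. Ndufs7, which carries the last iron-sulphur cluster before ubiquinone, had 8.96, 9.14 and 9.07 against 8.66, 8.75 and 8.91, without overlap (0.29, SE 0.11, adjusted p = 0.27). Ndufs8, a further iron-sulphur subunit, had 9.26, 9.41 and 8.99 against 9.00, 8.98 and 8.69 (0.33, SE 0.15, adjusted p = 0.37). Only siMnSOD replicate 3 reached into the control range, lying below siScramble replicate 1. Ndufs3 had 10.53, 10.61 and 10.21 against 10.28, 10.37 and 10.09, with overlap (0.20, SE 0.15, adjusted p = 0.69).

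The N module was the most mixed. Of 10 genes 7 had positive values, the median was 0.13 and none passed the test (2 at an unadjusted p under 0.05 in limma, and 1 with the replicate block). Ndufv1, which binds the flavin that takes electrons from NADH, had 10.03, 10.16 and 9.76 in siMnSOD and 9.66, 9.73 and 9.24 in siScramble. Its groups did not overlap by a narrow margin, siMnSOD replicate 3 lying just above siScramble replicate 2. The log2 fold change of 0.44 (SE 0.17) missed the threshold (adjusted p = 0.26) and reached it under the replicate block (0.047). Ndufv2, an iron-sulphur partner of Ndufv1, had 9.55, 9.63 and 9.48 against 9.28, 9.35 and 9.48 (0.18, SE 0.11, adjusted p = 0.54). Replicates 1 and 2 differed by 0.26 and 0.28 and replicate 3 by 0.00. Ndufs1, the largest subunit, had 9.69, 9.64 and 9.43 against 9.45, 9.44 and 9.42 (0.16, SE 0.11, adjusted p = 0.68), with the same near absence of a difference in replicate 3.

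Ndufs6, a zinc-binding subunit that is added late in assembly, had the largest fold change of all 43 genes and did not pass. Its siMnSOD levels were 8.84, 9.08 and 8.91 and its siScramble levels 8.40, 8.44 and 7.51. The groups did not overlap, but siScramble replicate 3 lay almost 1 log2 unit below the other controls. The fold change was 0.83 (SE 0.25, adjusted p = 0.15), and 0.52 (adjusted p = 0.037) without siScramble replicate 3. The 3 N module genes with negative values were Ndufs4, Ndufa7 and Ndufa6. Ndufs4, an accessory subunit whose loss causes a Leigh-like disease in mice, had 9.36, 9.39 and 8.65 against 9.57, 9.53 and 8.82. It was lower in siMnSOD within each replicate number by 0.14 to 0.21, less than the difference between replicates, and the groups overlapped (−0.17, SE 0.28, adjusted p = 0.98). Ndufa6 also had negative differences within every replicate number (−0.09, SE 0.31), while Ndufa7 had −0.28, −0.19 and 0.18. The remaining genes, Ndufa2, Ndufa12 and Ndufv3, had 0.32, 0.11 and 0.06.

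All 10 measured genes of the distal membrane arm, which carries the outermost proton pumps, were positive, their median was 0.28 and none passed (1 at an unadjusted p under 0.05 in limma, and 1 with the replicate block). Over all genes the shares positive, called higher, higher at the unadjusted p and higher with the block were 52.3%, 2.17%, 8.61% and 4.02%. Ndufb7 had 8.66, 8.89 and 8.52 in siMnSOD and 8.38, 8.34 and 8.08 in siScramble and was the only gene of this group whose arrays did not overlap (0.42, SE 0.14, adjusted p = 0.19). Ndufb3 had 6.98, 7.08 and 7.65 against 6.27, 6.45 and 7.24. In contrast to most members it was highest in replicate 3 of both groups, so the groups overlapped, although its differences of 0.72, 0.63 and 0.40 within replicate numbers were among the larger ones. Its adjusted p was 0.42, and 0.037 with the block. Ndufb5 had 0.41 (SE 0.19), Ndufb10 0.32 (SE 0.24) and Ndufb8 0.31 (SE 0.17).

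Ndufab1 is the mitochondrial acyl carrier protein, which serves in fatty acid synthesis as well as in complex I. It had 9.66, 9.91 and 8.94 in siMnSOD and 9.46, 9.54 and 9.50 in siScramble. The controls lay within 0.1 of each other, whereas siMnSOD replicates 1 and 2 were above them and replicate 3 was below. The fold change was 0.01 with a 95% interval from −0.57 to 0.58, and its sign turned negative (−0.0096) with quantile normalization. Ndufb11, Ndufb9, Ndufb6 and Ndufb2 showed the same order of signs, with positive differences in replicates 1 and 2 and negative ones in replicate 3.

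Assembly factors had a median fold change of 0.23, close to the 0.27 of the subunits, and neither group of genes was set apart by its median. The medians within replicate numbers 1, 2 and 3 were 0.24, 0.42 and 0.17 for subunits and 0.28, 0.39 and 0.08 for assembly factors. Of 7 assembly factors 6 had positive values and none passed (2 higher and 1 lower at an unadjusted p under 0.05 in limma, and 1 lower with the replicate block). Of 34 subunits 30 had positive values and 2 passed, or 7 with the replicate block. Of all genes 52.3% were positive, and 2.17% were called higher, or 4.02% with the block. Called lower with the block were 3.12%, and 8.61% were higher and 8.06% lower at an unadjusted p under 0.05 in limma.

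Ndufaf1, part of the complex that assembles the membrane arm, had 7.66, 7.86 and 7.95 in siMnSOD and 7.32, 7.31 and 7.64 in siScramble. The groups were separate by a narrow margin (0.40, SE 0.14, adjusted p = 0.20). Ndufaf7, a mitochondrial methyltransferase, had 8.47, 8.46 and 8.57 against 8.04, 8.04 and 8.37, also without overlap (0.35, SE 0.13, adjusted p = 0.22). Without siScramble replicate 3 both passed, with adjusted p = 0.047 for Ndufaf1 and 0.033 for Ndufaf7. Ndufaf3 had 6.80, 6.76 and 6.80 against 6.59, 6.45 and 6.63, with no overlap but a small difference (0.23, SE 0.10, adjusted p = 0.34).

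Ndufaf4 was the only Ndufaf gene with a negative fold change, while 4 subunits were negative as well. It works with Ndufaf3 in building the Q module. Its levels were 7.39, 7.23 and 6.93 in siMnSOD and 7.86, 7.87 and 7.34 in siScramble. Within replicate numbers it was lower in siMnSOD each time, by −0.47, −0.64 and −0.41, yet siMnSOD replicate 1 lay above siScramble replicate 3, so the groups overlapped. The log2 fold change of −0.51 (SE 0.19) did not pass (adjusted p = 0.24). It passed with the replicate block (adjusted p = 0.041), without siScramble replicate 3 (−0.68, adjusted p = 0.040) and with replicates 1 and 2 only (−0.55, adjusted p = 0.0097). Only 5.9% of all genes had a smaller fold change.

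The remaining assembly factors overlapped between groups. Ndufaf2, a relative of the subunit Ndufa12 that it precedes in assembly, had 7.40, 7.57 and 6.69 against 7.12, 7.17 and 6.63 (0.25, SE 0.26). Ndufaf5, which hydroxylates an arginine of Ndufs7, had 6.26, 6.54 and 5.57 against 6.40, 6.16 and 5.73 (0.03, SE 0.28), and the sign of its difference varied between replicate numbers. Ndufaf6 was the dimmest of them, with 5.62, 5.51 and 5.29 against 5.33, 5.40 and 5.22 (0.15, SE 0.12).

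Of the 2 namesakes outside complex I, Ndufa4 rose 1.70-fold. Its log2 intensities were 11.67, 11.68 and 11.28 in siMnSOD and 10.83, 10.88 and 10.63 in siScramble. The groups did not overlap. The log2 fold change was 0.77 (SE 0.15, adjusted p = 0.043). The call was lost after centring arrays (adjusted p = 0.094), with all probe sets tested (0.072), and without siMnSOD replicate 1 (0.15) or 2 (0.20) or siScramble replicate 1 (0.14) or 2 (0.13). Ndufa4l2, known for its induction in hypoxia, was the dimmest of the 43 genes, with 4.79, 4.45 and 5.43 against 4.51, 4.34 and 5.24. Replicate 3 was the highest array in both groups, and the groups overlapped (0.20, SE 0.32, adjusted p = 0.99).

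Set side by side within each replicate number, 29 of 43 genes were higher in siMnSOD in all 3 comparisons, against 22.6% of all genes, and 3 (Ndufaf4, Ndufs4 and Ndufa6) were lower in all 3, against 19.8%. The 29 comprised 22 of 34 subunits, 5 of 7 assembly factors and both namesakes. In replicate 1, 37 of 43 differences were positive, in replicate 2 there were 39, and in replicate 3 there were 31. The median difference over the 43 genes was 0.26, 0.40 and 0.17. With the replicate number as a block in limma, 8 genes were higher (4.02% of all genes) and 1 lower (3.12%). The 8 were the 3 above with Ndufa5, Ndufa8, Ndufb3, Ndufc1 and Ndufv1, and the 1 was Ndufaf4.

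**Figure D3:**
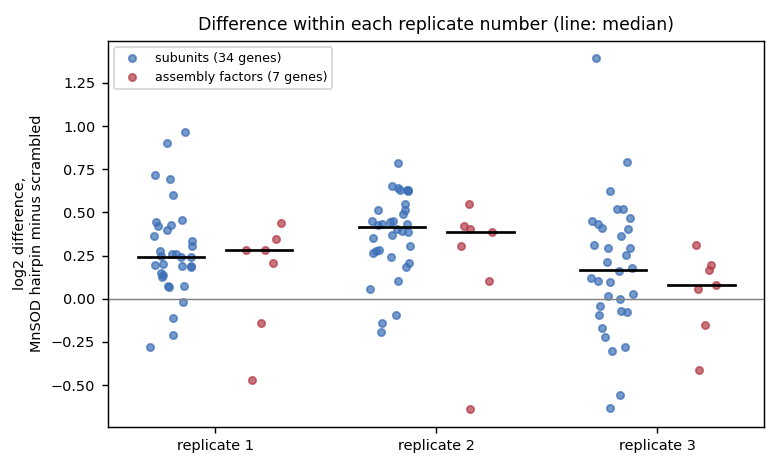
Log2 difference (siMnSOD minus siScramble) of each subunit gene (blue, 34 genes) and assembly factor gene (red, 7 genes) within replicate numbers 1, 2 and 3, with the median as a black line. The medians of both kinds lie above 0 in each replicate number and are lowest in replicate 3 (0.17 and 0.08).

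Replicate 3 differed from replicates 1 and 2 in the same way in both groups for many of these genes. In both groups 30 of 43 genes were lower in replicate 3 than the mean of replicates 1 and 2, and 9 were higher. Over all 19938 genes 5180 were lower in both groups and 9418 were higher in both. The median offset was −0.35 in siMnSOD and −0.24 in siScramble, against 0.08 and 0.10 over all genes. The membrane-arm genes Ndufs5, Ndufc2, Ndufa1 and Ndufb6 had the largest offsets in siMnSOD, of −1.61, −1.47, −1.29 and −1.29, with −0.88, −1.01, −1.13 and −0.79 in siScramble. Ndufs5, a subunit on the outer face of the membrane arm, thus had 8.41, 8.45 and 6.82 in siMnSOD and 8.27, 8.39 and 7.45 in siScramble. Replicates 1 and 2 were nearly level between the groups and replicate 3 was low in both, more so in siMnSOD, which gave a fold change of −0.14 (SE 0.48, 95% interval −1.28 to 0.99). That interval includes the fold change of Ndufa3. Ndufa1, an X-linked subunit needed for membrane-arm assembly, had differences of 0.43, 0.40 and 0.25 within replicate numbers but an SE of 0.45 between the groups.

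**Figure D4:**
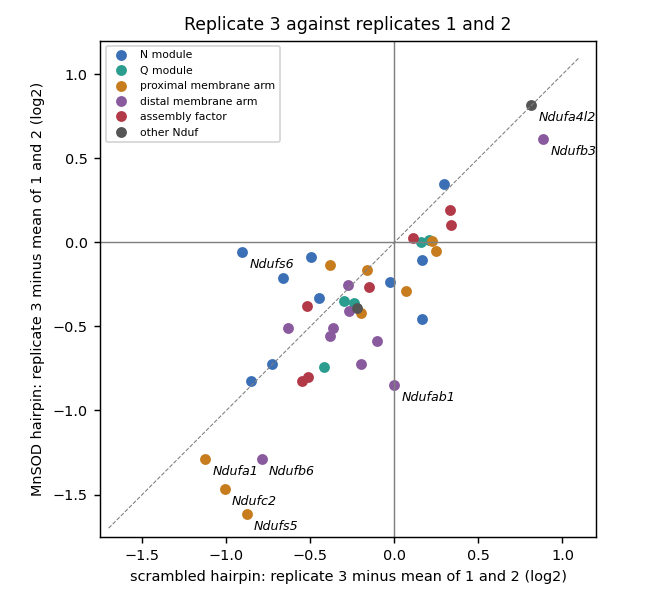
Log2 intensity of replicate 3 minus the mean of replicates 1 and 2, in siScramble (horizontal axis) and siMnSOD (vertical axis), for each of the 43 genes, coloured by module. Of the genes 30 lie below 0 on both axes, and Ndufs5, Ndufc2, Ndufa1 and Ndufb6 lie furthest down, while Ndufa4l2 and Ndufb3 lie at the upper right.

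With replicates 1 and 2 only, 17 of the 43 genes were higher (11.8% of all genes) and 1 was lower (9.69%). The 17 comprised 13 subunits, 3 assembly factors and Ndufa4. This fit rests on 2 arrays per group.

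Other genes of the pathway gave few calls. The only mitochondrially encoded complex I gene with a probe set of 1 symbol was ND3, with 12.15, 12.19 and 11.73 in siMnSOD and 11.99, 12.09 and 11.86 in siScramble. Its groups overlapped, and the fold change was 0.05 (SE 0.15). Of 9 measured assembly factors with other names 7 had positive values (median 0.12) and none passed (2 higher and 1 lower at an unadjusted p under 0.05 in limma, and 1 higher with the replicate block). Of all genes 52.3% were positive, 8.61% were higher and 8.06% lower at the unadjusted p, and 4.02% were higher with the block. Dmac1, which acts in assembly of the distal membrane arm, had 8.35, 8.65 and 8.09 against 7.74, 7.64 and 6.96, the largest difference of that list (0.91, SE 0.24, adjusted p = 0.10, or 0.026 with the block). Tmem126b had 0.50 (SE 0.21, adjusted p = 0.30). Timmdc1, by contrast, was lower on each siMnSOD array than on any control (−0.34, SE 0.11, adjusted p = 0.18).

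The subunits of complexes II to V resembled those of complex I in their direction. Of 37 measured genes 36 had positive values, against 52.3% of all genes, and the median was 0.37. Of these genes 3 passed, or 9 with the replicate block and none after centring arrays on their medians. The shares of all genes called higher were 2.17%, 4.02% and 1.83%. The 3 were Cox7a2 of complex IV (0.72, SE 0.12, adjusted p = 0.025), Uqcrc1 of complex III (0.49, SE 0.10, adjusted p = 0.044) and Atp5d of the ATP synthase (0.54, SE 0.11, adjusted p = 0.044). The call of each was lost without replicate 1 or 2 of either group, with highest adjusted p of 0.13, 0.21 and 0.21, and those of Uqcrc1 and Atp5d also without siMnSOD replicate 3 (0.071 and 0.082). No difference between these lists and the complex I genes was tested.

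Of 13 regulators of respiratory genes 12 had negative values, 8 after centring and 10 with quantile normalization, with a median of −0.13. The 12 included Polrmt at −0.00028, and 52.3% of all genes were positive. In replicate numbers 1, 2 and 3 the median difference was −0.18, −0.21 and −0.0088, and 3, 3 and 6 regulators were positive. Only 5 were lower in all 3, against 19.8% of all genes. None passed (1 higher and 2 lower at an unadjusted p under 0.05 in limma, against 8.61% and 8.06% of all genes, and 1 lower with the replicate block, against 3.12%). Ppargc1a, the coactivator that drives mitochondrial gene expression, had 5.19, 4.99 and 5.52 in siMnSOD and 5.66, 5.78 and 6.06 in siScramble. All siMnSOD arrays lay below the controls, and above the background guide (−0.60, SE 0.17, adjusted p = 0.13, or 0.037 with the block). Tfb2m, a transcription factor for mitochondrial DNA, had −0.31 (SE 0.11, adjusted p = 0.22), and the rRNA methyltransferase gene Tfb1m had 0.57 (SE 0.20, adjusted p = 0.20).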

How the data were processed

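RNA of 6 AML-12 samples was measured on 1 array each. The authors deposited linear intensity values for each probe set. RMA is the tool named in the submitters' processing notes, while the series' design text names MAS5 scaling, and no version is given in the sources used here. Log2 of these intensities was fitted with limma 3.58.1 in R 4.3.3, with group as the only term, over 21559 rows (19938 genes with 1 symbol, brightest probe set each, and 1621 probe sets with several symbols), with Benjamini-Hochberg adjustment over all rows and a threshold of 0.05. Symbols come from GEO's platform annotation, updated through Entrez identifiers in a RefSeq table of GRCm38.p6. The background guide is the 95th percentile of mean log2 levels of 1027 olfactory receptor genes. Probe sets can take signal from near-identical copies, and RefSeq lists pseudogenes of Ndufa11, Ndufa12, Ndufab1, Ndufs5 and Ndufs6. The number of arrays limits the precision.

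Both groups carry replicate numbers 1 to 3. Deviations from group means of same-numbered samples correlated at 0.38, 0.33 and 0.55 across genes, and each exceeded 0.1. Samples of 1 number were paired in an alternative fit and in the differences within replicate numbers, while the main fit left them unpaired. The correlations do not settle this pairing for numbers 1 and 2. Deviations within a group cancel, so an offset shared by both replicates 3 is enough to make numbers 1 and 2 correlate positively. Numbers 1 and 2 were not told apart by this check (0.45 for siMnSOD 1 with siScramble 2, and 0.36 for siMnSOD 2 with siScramble 1), whereas number 3 correlated negatively with both. In the alternative fit the replicate number entered as a block, and the result is given where it changed a call. What a number stands for is not stated in the labels.

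The members and lists were chosen with earlier results of these data known. Values on all arrays are given for called members, the 8 subunits of smallest p, core subunits, assembly factors, the 3 most negative members, Ndufa4, Ndufa4l2, Ndufab1 and Sod2. Of the other pathway genes, some of smallest p are named, with values on all arrays for ND3, Dmac1 and Ppargc1a only. Ndufb3 and the fold changes of further members were chosen after their values were seen. The fit was tested on simulated data.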

Additional observations from a re-analysis of the deposited data

How the results depend on the processing

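Of the 43 genes 3 were higher in the main analysis, 8 with the replicate block, 1 with all probe sets tested and 17 with replicates 1 and 2 only. The shares of all genes called higher were 2.17%, 4.02%, 1.39% and 11.8%. Leaving out 1 array gave 0 to 8: none without siMnSOD replicate 1 or 2 or siScramble replicate 1 or 2, 2 without siMnSOD replicate 3 and 8 without siScramble replicate 3. Over all genes the share called higher in these fits was 0.261% to 0.667% in the first 4, 1.79% and 5.61%. Under centring, quantile normalization, the mean of a gene's probe sets, an offset of 16 intensity units and without dim probe sets, 3 or 4 were higher and none lower. In that order 1.83%, 2.59%, 2.21%, 2.81% and 3.72% of all genes tested were called higher. Ndufaf4 was the only gene called lower, with the block, without siScramble replicate 3 and with replicates 1 and 2 only. The number of genes higher in siMnSOD within all 3 replicate numbers ran from 27 to 32 in the fits with all 6 arrays. With 1 array left out, or with replicates 1 and 2 only, it ran from 29 to 37. Only 2 replicate numbers were then compared, which is a looser criterion. The subunit median stayed between 0.15 and 0.39 and the assembly factor median between 0.10 and 0.31 over all alternatives. Sod2 lost its call after centring (−1.54) and with all probe sets tested (−1.63), and ran from −1.88 to −1.27 with 1 array left out. Among uncalled genes with values on all arrays in the text, signs turned when 1 array was left out for Ndufaf5 (−0.18 to 0.31), Ndufs4 (−0.42 to 0.069), Ndufs5 (−0.44 to 0.39), Ndufa4l2 (−0.077 to 0.47), Ndufab1 (−0.20 to 0.29) and ND3 (−0.037 to 0.19). Other members turned too, since only 30 of 43 were positive without siMnSOD replicate 2. Ndufs5 was 0.10 with replicates 1 and 2 only, and Ndufab1 −0.0096 with quantile normalization. The causes were not tested. With 3 arrays per group even differences of several SEs were not called, as in Ndufa8 and Ndufc1.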
